A study of Mus musculus with 24 samples.

Results

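The heat shock experiment in CHIP null fibroblasts with the label 240 min comprised 6 of the 24 arrays of the series, chosen by the titles of the scanner files. Of these, 3 carried RNA from heated cultures and 3 RNA from control cultures of the same genotype and time label. The cells were mouse embryonic fibroblasts (MEFs, primary connective tissue cells) taken at day 13.5 from embryos whose C57BL6 parents were both CHIP(+/-), and the embryos used here were CHIP(-/-). The heated cultures were held at 43 °C and the control cultures at 37 °C, all in medium with β-mercaptoethanol. The other groups were CHIP null cells with the label 30 min and wildtype cells, CHIP(+/+), with both labels, each heated or control with 3 arrays. Each array compared a sample (500 ng of total RNA, labelled with Cy5) with a common mouse reference RNA labelled with Cy3, so a value is the log2 ratio of sample over reference for a gene and not an amount of RNA. The labels call the 3 arrays of a group biological replicates. They name no embryo, litter or culture, so p-values measure the spread between these samples. A germline null genotype removes CHIP throughout development, so cultures of the 2 genotypes came from different embryos.

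Cells exposed to heat activate the transcription factor HSF1, which binds heat shock elements, repeats of GAA and TTC upstream of chaperone genes, and switches on the inducible HSP70 chaperones. General transcription and the splicing of many other genes slow at the same time. CHIP, the product of Stub1, is a ubiquitin ligase and co-chaperone that binds HSP70 and HSP90, marks misfolded client proteins for the proteasome, and takes part in the activation of HSF1. The title of the series places CHIP with DAXX, a nuclear protein, and with the cell death programme of p53.

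Stub1 itself carried the label of the genotype. Its log2 ratio was -2.27, -2.02 and -2.07 in heated CHIP null cells, against -0.15, -0.06 and -0.09 in heated wildtype cells, a difference of -2.02 ± 0.07 (SE, limma, adjusted p = 7.1e-18). Control CHIP null cells had -2.43, -2.14 and -2.33, against -0.23, -0.18 and -0.24 in control wildtype cells. Within CHIP null cells the remaining Stub1 signal differed between heated and control arrays by 0.18 ± 0.07 (adjusted p = 0.055), and the groups overlapped. All 12 fibroblast markers, among them the collagen gene Col1a1, were well above background on the 3 heated and the 3 control arrays. The heated arrays had 44.9 to 45.7% of probes well above background in Cy5, against 47.3 to 49.2% on the control arrays. The 3 heated arrays and control replicate 3 lay on one slide, and control replicates 1 and 2 on another. The authors' value table held, in all 24 columns, the ratios of the scanner file with the other time label, so the label 240 min is that of the scanner files, and the labels do not settle which time is right.

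Heated CHIP null cells differed from their controls at 5263 of 13488 genes tested (39%), 3301 higher (24.5%) and 1962 lower (14.5%), at an adjusted p under 0.05 by limma. Most differences were small. Past 1.5-fold there were 10 genes higher (0.0741%) and 228 lower (1.69%), and past 2-fold 6 higher and 6 lower (0.0445% each). The counts past 1.5-fold were 47 higher and 691 lower with the scanner software's ratio, 44 and 420 with an offset of 10 and 6 and 1361 with median centring, and the mean over probes gave 87 lower. With slide as a block, where heated and control arrays are compared through control replicate 3 alone, 2750 genes were called, 1318 higher and 1432 lower. Set against control replicate 3, the control on their slide, 5257 of the 5263 called genes kept the sign of the change, although that array had also entered the choice of these genes. The 3 heated arrays lay wholly above or below the 3 controls for 46% of all genes tested. The median log2 change over all genes was 0.07, with loess normalization, which centres each array along the brightness range. Centring each array on its median alone moved the median of all genes to -0.18 and the split to 19 higher and 4671 lower. The ratio of the scanner software gave 1179 higher and 1651 lower. So the direction of small changes is relative to how the arrays are centred, and lists of genes are set below against the median of all genes.

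Hspa1a, which encodes the heat-inducible cytosolic HSP70, rose the most of the named protein-coding genes. On its brightest probe the log2 ratio was 2.21 and 0.78 in heated replicates 2 and 3, against -0.79, -0.70 and -0.76 in the controls. The spot of heated replicate 1 was marked as an outlier and left out, and with it kept that array read 4.27. The change was 2.24 ± 0.42 (SE, 2 heated and 3 control arrays, adjusted p = 0.00027), and 3.17 with the outlier spot kept.

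The other 3 probes of Hspa1a were measured on all 6 arrays. One read 3.92, 2.09 and 0.57 in heated cells, against -0.82, -0.74 and -0.78 in controls. The next read 2.76, 1.71 and 0.78 in heated cells, against -0.46, -0.28 and -0.48 in controls, and the last 2.20, 1.44 and 1.33 in heated cells, against 0.13, -0.02 and -0.12 in controls. Every probe thus had its highest value on heated replicate 1 and its lowest on heated replicate 3, and no heated value overlapped the controls. Over the 4 probes the change ran from 1.66 ± 0.16 to 2.97 ± 0.47, with adjusted p-values over all probes from 4.5e-08 to 2e-04. In wildtype cells the same probes changed by 1.43 to 3.27, and the difference between genotypes had an adjusted p of 1 for each probe.

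Hspa1a has a nearly identical copy, Hspa1b, which had no tested probe of its own, so the signal may be the sum of both. The 250 bases before the start of each gene are shown because they are the sequences through which heat is known to act on this pair (RefSeq, GRCm38.p6, both on the minus strand of chromosome 17, 5′ to 3′, at chr17:34972157-34972406 for Hspa1a and chr17:34959239-34959488 for Hspa1b). Capitals mark a 2-unit element, GAANNTTC or TTCNNGAA, each of which reads the same on both strands.
Hspa1a: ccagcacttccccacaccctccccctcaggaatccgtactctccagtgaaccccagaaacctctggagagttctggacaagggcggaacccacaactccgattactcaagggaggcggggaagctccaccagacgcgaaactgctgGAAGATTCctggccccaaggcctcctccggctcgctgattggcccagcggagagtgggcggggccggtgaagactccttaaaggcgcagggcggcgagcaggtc
Hspa1b: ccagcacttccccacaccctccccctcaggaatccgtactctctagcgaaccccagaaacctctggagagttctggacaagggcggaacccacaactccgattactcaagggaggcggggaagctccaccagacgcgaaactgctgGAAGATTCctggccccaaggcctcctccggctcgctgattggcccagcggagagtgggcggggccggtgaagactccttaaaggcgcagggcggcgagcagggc
The windows differed at 3 of 250 bases (98.8% identity), and each held 1 such element, GAAGATTC. Of all 32851 promoter windows of this length, 12.8% held a 2-unit element.

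**Figure D1:**
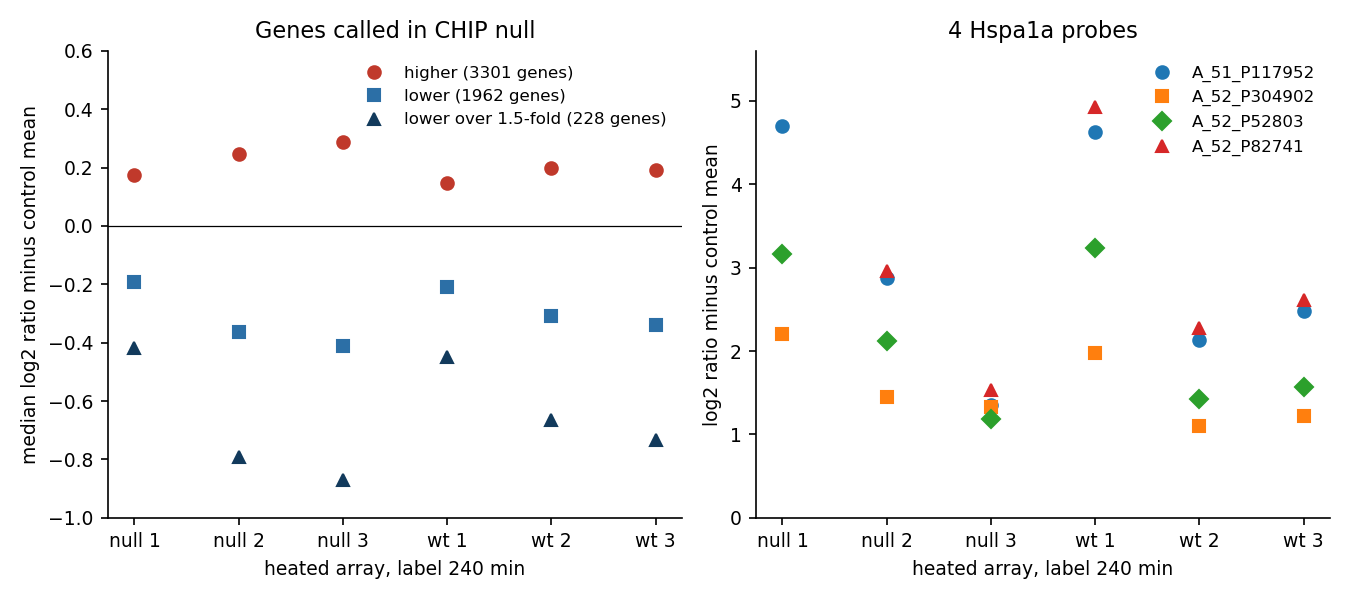
Left, the median log2 ratio minus the control mean of the same genotype on each heated array with the label 240 min (CHIP null 1 to 3, wildtype 1 to 3), for genes called higher, lower, and lower over 1.5-fold in CHIP null. Right, the same difference for the 4 Hspa1a probes, 1 point a probe; the outlier spot of replicate 1 is not drawn. On replicate 1 of both genotypes the lower genes lie nearest to 0 and Hspa1a lies highest. In wildtype cells only heated replicate 1 shared the slide of the controls.

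The rest of the cytosolic chaperone machinery showed few called differences. Of 10 measured genes of the HSP70 and HSP110 families, 1 rose (Hspa1a) and 1 fell, beside shares of 24.5% and 14.5% for all genes. The gene that fell was Hspa13 at -0.32, a member of the family that is not cytosolic. Hspa8, the constitutive HSP70, had log2 ratios of 0.23, 0.25 and 0.50 in heated cells, against 0.35, 0.34 and 0.38 in controls. Hsph1, the HSP110 exchange factor, had 1.52, 1.45 and 1.25 in heated cells, against 1.44, 1.49 and 1.45 in controls. The groups overlapped for both, with adjusted p = 0.78 and 0.6. Hsp90aa1, the inducible HSP90, changed by 0.04 ± 0.10 (adjusted p = 0.75), Hsf1 by 0.03 ± 0.07 (adjusted p = 0.74) and Bag3, a co-chaperone of HSP70, by 0.09 ± 0.06 (adjusted p = 0.21). The polyubiquitin gene Ubb changed by 0.04 (adjusted p = 0.72).

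Of 19 measured DNAJ co-chaperones, which deliver clients to HSP70, 1 rose and 4 fell, beside 24.5% and 14.5% of all genes. Dnaja2 fell by 0.48 and Dnajc13, which acts in endosomes, fell by 0.32. Dnajb1, the classical heat-inducible partner of HSP70, had -0.05, -0.17 and -0.10 in heated cells, against 0.10, 0.08 and 0.06 in controls on its brightest probe, a change of -0.19 ± 0.05 (adjusted p = 0.0072). Its other probe changed by 0.18, so the direction for Dnajb1 depends on the probe. Bag5, another HSP70 co-chaperone, fell by 0.53. Among 7 small heat shock proteins, holdases that keep unfolding proteins soluble, 4 rose and 0 fell: Hspb2 at 0.40, Hspb7 at 0.28, Cryab at 0.20 and Hspb8 at 0.14. The median of this list was 0.16, 0.09 above that of all genes, and it was 0.11 above it with median centring, where the list itself stood at -0.06. Hspb1 had a change of 0.16 ± 0.08 (adjusted p = 0.087).

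The mitochondrial chaperonin pair split. Hspd1, which encodes HSP60, had 0.39, -0.14 and -0.40 in heated cells, against 0.73, 0.80 and 0.81 in controls, and fell by 0.83 ± 0.12 on the log2 scale (adjusted p = 1.3e-05). Its other probe changed by -0.45. Hspe1, which encodes its partner HSP10, had 1.38, 1.33 and 1.32 in heated cells, against 1.17, 1.21 and 1.28 in controls, a change of 0.13 ± 0.06 (adjusted p = 0.098) in which the groups did not overlap. The 2 genes lie head to head on chromosome 1. They share the region between the start of Hspe1 and 1 start of Hspd1. A 30-base piece of it is shown because it holds a 3-unit heat shock element (RefSeq, GRCm38.p6, chr1:55088053-55088082, plus strand, the strand of Hspe1), whose first base lies 89 bases before the start of Hspe1.
Hspe1 and Hspd1: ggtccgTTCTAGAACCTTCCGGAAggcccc
Capitals mark 2 overlapping matches to GAANNTTCNNGAA and its reverse complement TTCNNGAANNTTC, and 0.466% of all promoter windows held a match on either strand. The window before another start of Hspd1 held 0 matches. Across 13 mitochondrial chaperones and proteases, 4 rose and 3 fell, beside 24.5% and 14.5% of all genes. Hspa9, the mitochondrial HSP70, fell by 0.36, and Grpel1, the exchange factor for it, rose by 0.19. Of 23 genes of the endoplasmic reticulum and its unfolded protein response, 6 rose and 7 fell, beside the same shares of all genes. Among them were Hyou1, a chaperone, at 0.29 and Canx, the lectin chaperone calnexin, at -0.50. Hspa5, the marker chaperone of that response, changed by 0.01 ± 0.07 (adjusted p = 0.9).

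By the brightest probe of each gene, the largest rise was that of Rmrp, the RNA component of RNase MRP. Rmrp is a noncoding RNA made by RNA polymerase III. Its log2 ratio was 2.83, 2.67 and 2.69 in heated cells, against -0.19, 0.58 and 0.03 in controls, a change of 2.59 ± 0.13 (SE, n = 3 arrays a group, adjusted p = 4.5e-14). The heated arrays lay close together and far above the more scattered controls. In wildtype cells Rmrp changed by 2.36. Hspa1a rose by more than Rmrp on another of its probes (2.97), and on its brightest with the outlier spot kept (3.17). C5ar2, a receptor for complement C5a, had 1.09, 1.09 and 0.99 in heated cells, against -0.08, -0.13 and -0.21 in controls, where it was well above background on 0 of 3 arrays. It was at least 2.06-fold higher in heated cells (adjusted p = 2.9e-11), taking for the controls the higher of the probe's own signal and the lowest signal among probes well above background. Dusp26, a phosphatase that acts on MAP kinases and p53, had -2.29, -2.21 and -2.09 in heated cells, against -3.08, -2.79 and -3.09 in controls, a change of 0.79 ± 0.08 (adjusted p = 1e-07). Rbfox3, a neuronal splicing factor, changed by 0.72 ± 0.12, and its control replicate 3 (-1.25), which shared their slide, lay close to the heated arrays (-1.02, -1.06 and -1.05).

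Of the 10 genes past 1.5-fold upwards, 5 are probes with no gene name, given here by their identifiers in the files, and 1 of these overlapped between groups (NAP014233-001). The probe A_52_P981301 had -0.40, -0.34 and -0.30 in heated cells, against -1.72, -1.62 and -1.62 in controls, and AK048095 had -1.11, -1.11 and -1.09, against -2.17, -2.07 and -2.09. Both were tight within each group. They changed by 1.31 and 1.004 in CHIP null cells with the label 240 min, against 2.54 and 2.42 with the label 30 min.

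The next genes upwards were low relative to the reference RNA. They were Srgn (0.53), a proteoglycan of secretory granules that was well above background on 0 of 3 control arrays and at least 1.30-fold higher in heated cells, Srcin1 (0.50), an inhibitor of the kinase SRC, and Cldn5 (0.48), a tight junction protein of endothelium. Fbln1, a matrix glycoprotein secreted by fibroblasts, had -0.43, -0.23 and -0.27 in heated cells, against -0.76, -0.86 and -0.79 in controls, a change of 0.49 ± 0.07 (adjusted p = 1.6e-05), and its other probe 0.32. Acads (0.48), of mitochondrial fatty acid oxidation, Clybl (0.48, other probe 0.04), a mitochondrial enzyme, Ptgds (0.46), a prostaglandin D synthase, Tmem130 (0.46), a membrane protein, Slc13a4 (0.45), a sulfate transporter, and Igfbp4 (0.45, other probe 0.19), which binds insulin-like growth factors, followed. Slc13a4 was well above background on 1 of 3 arrays in either group. Among genes with more than 1 tested probe, ranked by the probe that changed least and given by the brightest, those that rose on every probe after Hspa1a were led by Dis3l (0.35), a cytoplasmic exonuclease of the RNA exosome, and Tyms (0.35), thymidylate synthase. Tyms had 1.62, 1.62 and 1.70 in heated cells, against 1.31, 1.22 and 1.34 in controls. Thbs4 (0.36) and Ltf (0.39), a matrix protein and an iron-binding protein, Cenpk (0.36), of the kinetochore, Eif3e (0.32), of translation initiation, and Rpsa (0.31), a ribosomal protein, did so too.

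**Figure D2:**
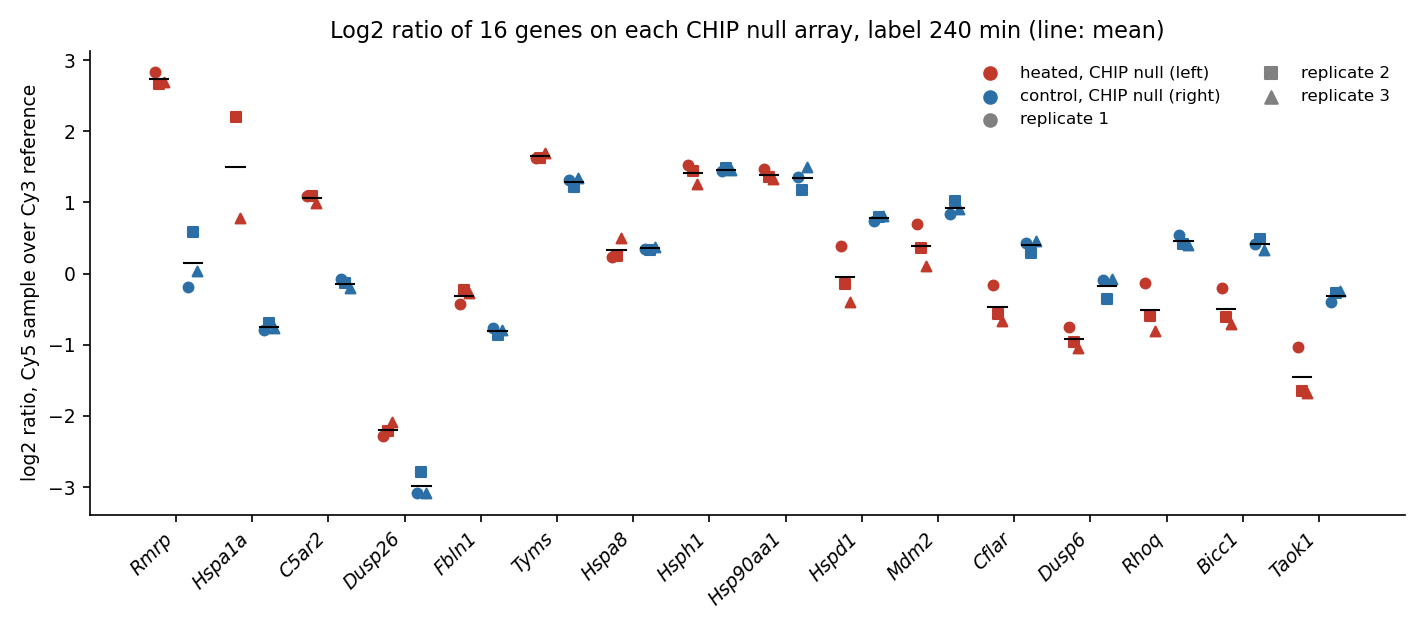
Log2 ratio of sample over reference (y axis) of 16 genes on each of the 6 CHIP null arrays with the label 240 min, heated at the left and control at the right of each gene, with the replicate number as the symbol and the mean as a line. Rmrp, Hspa1a and C5ar2 stand above their controls, Hspa8, Hsph1 and Hsp90aa1 overlap, and in the 7 genes from Hspd1 to Taok1 heated replicate 1 lies nearest to the controls.

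Past 1.5-fold the falls were far more numerous than the rises, 228 against 10, with a median of -0.69. Taok1, a kinase upstream of the p38 and JNK pathways, had -1.03, -1.65 and -1.67 in heated cells, against -0.40, -0.28 and -0.25 in controls, a change of -1.14 ± 0.11 (SE, adjusted p = 2.9e-08). Kif5b, a kinesin motor, had -0.10, -0.70 and -0.86 in heated cells, against 0.46, 0.62 and 0.55 in controls, a change of -1.10. Tnks2 (-1.06), a poly-ADP-ribosyltransferase of telomeres and WNT signalling, Rlim (-1.06), a nuclear ubiquitin ligase of X inactivation, Nucks1 (-1.04), a chromatin protein, and Mib1 (-1.02), a ubiquitin ligase of NOTCH signalling, also fell past 2-fold. Rhoq (-0.97), a small GTPase, Hipk3 (-0.96) and Hipk2 (-0.95), nuclear kinases that act on p53 and DAXX, Arid2 (-0.94), of the PBAF chromatin remodeller, Usp34 (-0.93), a deubiquitinase, Bicc1 (-0.92), an RNA-binding protein, Purb (-0.91), a DNA-binding protein, Pakap (-0.91), a fused locus of a palmitoylation-linked protein and a kinase anchor, and Acsl4 (-0.91), an acyl-CoA synthetase, completed the lowest 15. Heated and control values did not overlap in any of them, which the rule for naming them required.

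For many of these genes the fall was not seen to the same size on every probe. Of the 228 genes lower past 1.5-fold, 166 had another tested probe, 109 had another probe called lower, 79 had all tested probes called lower, and 5 had another probe called higher. The brightest probes of these 166 had a median change of -0.71 and a median log2 brightness of 8.53, and their other 272 probes had -0.24 and 6.52. The brightest probes were chosen for a fall past 1.5-fold and the others were not, so part of this difference follows from that choice. For Hipk2 the other probe changed by 0.08, for Hipk3 by -0.04, for Acsl4 by 0.12 and for Nucks1 the others by -0.14 and -0.05. The part of dim signal in this difference was not tested. Among genes that fell on every tested probe, ranked by the probe that changed least, Rhoq (-0.79 on that probe) and Bicc1 (-0.65) came first. Rhoq had -0.14, -0.60 and -0.80 in heated cells, against 0.54, 0.42 and 0.41 in controls, and Bicc1 had -0.20, -0.61 and -0.71, against 0.41, 0.49 and 0.33. Next came Vgll3 (-0.64), a cofactor of TEAD transcription factors, Dek (-0.62), a chromatin protein, Fndc3b (-0.61), a membrane protein, Apbb2 (-0.58), an adaptor of the amyloid precursor protein, Sertad2 (-0.58), a transcriptional coregulator, Epc2 (-0.57), of a histone acetyltransferase complex, Mbnl2 (-0.57), a splicing regulator, and Frs2 (-0.57), an adaptor of FGF receptors.

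Genes that fell were long. The median length of the gene from start to end, with introns, was 58.9 kb for those lower past 1.5-fold (212 of 228 with a length in RefSeq) and 47.2 kb for all lower genes, against 22.6 kb for all genes tested, while it was 15.2 kb for the genes higher. Among genes with more than 1 tested probe, the 319 that were lower on all of them had a median of 58.6 kb. No median was taken over all genes with more than 1 tested probe, so this value has no baseline of its own.

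Falls outnumbered rises in lists of ubiquitin ligases and deubiquitinases, immediate early genes, Kruppel-like factors, ERK feedback and TGF-beta signalling. Of 20 ubiquitin ligases and deubiquitinases, not all of them nuclear, 12 fell and 0 rose. Their median was -0.26, against 0.07 for all genes, of which 14.5% fell and 24.5% rose. Ube3a (-0.89), a ubiquitin ligase, Usp47 (-0.78), a deubiquitinase, Cul5 (-0.69) and Cul3 (-0.59), scaffolds of ubiquitin ligases, and Usp7 (-0.64), which deubiquitinates p53 and MDM2, were among them. Of 27 immediate early genes, transcription factors and signals induced within minutes of growth factors, 15 fell and 0 rose (median -0.22). Ccn1, a matrix signal, had 1.23, 1.53 and 1.64 in heated cells, against 2.10, 2.05 and 2.07 in controls, and fell by 0.60. Here heated replicate 1 was the lowest. Jun fell by 0.39, Egr1 by 0.27 and Nr4a1, a nuclear receptor, by 0.45. Fos had -0.78, -0.80 and -0.76 in heated cells, against -0.84, -0.86 and -0.84 in controls, a change of 0.07 ± 0.05 (adjusted p = 0.33). With the scanner software's ratio Fos fell by 0.53 (limma, adjusted p = 0.0013), so its call depends on the processing. Of 13 Kruppel-like factors 6 fell and 0 rose, with Klf4 at -0.68 and Klf6 at -0.60 (other probe -0.40).

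Of 14 genes of MAP kinase phosphatases and ERK feedback 7 fell and 1 rose, beside 14.5% and 24.5% of all genes. Dusp6, which switches off ERK, had -0.74, -0.97 and -1.05 in heated cells, against -0.09, -0.35 and -0.08 in controls, a change of -0.74 ± 0.08 (adjusted p = 1e-07). Spry2, an inhibitor of receptor kinases, fell by 0.57, and its other probe changed by 0.25. The member that rose was Dusp26. Of 22 genes of TGF-beta signalling 11 fell and 2 rose (median -0.21). The receptors Bmpr2 (-0.75), Bmpr1a (-0.37), Tgfbr1 (-0.36) and Tgfbr2 (-0.35) fell, as did the signal transducers Smad5 (-0.74), Smad1 (-0.40) and Smad3 (-0.26) and the corepressor Skil (-0.72). The member with the higher rise was Bmp1 (0.39), a protease that processes procollagen. Each of these 5 lists lay below the median of all genes with loess, with median centring and with the scanner software's ratio. Of 19 polycomb genes and chromatin remodellers 7 fell and 1 rose, with Suz12 (-0.70), of polycomb complex PRC2, and Chd1 (-0.63), a remodeller, among them. Of 26 genes of sterol and fatty acid synthesis 7 fell, led by Hmgcs1 (-0.76), which makes HMG-CoA, and 4 rose.

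The study's title names p53 and DAXX, and their genes and targets are given next. Trp53 had 0.19, 0.31 and 0.15 in heated cells, against -0.04, 0.04 and 0.12 in controls, a change of 0.18 ± 0.06 (adjusted p = 0.025). Bax, which permeabilises mitochondria, had 1.54, 1.57 and 1.61 in heated cells, against 1.33, 1.23 and 1.35 in controls, and rose by 0.27 ± 0.06 (adjusted p = 0.00072). Cdkn1a, the p21 inhibitor of cell cycle kinases, changed by 0.22 ± 0.07 (adjusted p = 0.022), with overlap between the groups. With median centring, which lowered the median of all genes, these 3 changes had the opposite sign (-0.12 for Trp53, -0.06 for Bax and -0.12 for Cdkn1a, adjusted p = 0.3, 0.77 and 0.39).

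Mdm2, the ubiquitin ligase that restrains p53, had 0.69, 0.37 and 0.10 in heated cells, against 0.84, 1.02 and 0.91 in controls, and fell by 0.54 ± 0.09 (adjusted p = 9e-05). Pmaip1, the death gene NOXA, had 1.77, 1.48 and 1.18 in heated cells, against 1.99, 1.97 and 2.03 in controls, and fell by 0.52. Zmat3 (-0.63) and Trp53inp1 (-0.60), further p53 targets, and Bbc3 (-0.21), the death gene PUMA, fell as well. In all, 6 of 19 p53 targets of arrest, repair and feedback fell and 1 rose (median -0.14), and of 15 p53 genes of cell death 3 fell and 4 rose (median 0.00). The shares of all genes were 14.5% lower and 24.5% higher, and the cell death list was near them.

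Daxx had -0.34, -0.38 and -0.38 in heated cells, against -0.35, -0.36 and -0.26 in controls, a change of -0.04 ± 0.06 (adjusted p = 0.58). Of 18 genes around DAXX, the HIPK kinases and the ASK1-JNK cascade, 9 fell and 1 rose (median -0.15). These were led by the kinases Hipk3 and Hipk2, whose other probes did not pass in that direction, with Map2k4 (-0.28), an activator of JNK, and Mapk14 (-0.29), p38 alpha, after them. The list shares Usp7 and Jun with lists above. Among BCL2 and caspase genes 3 of 22 fell and 4 rose, near the 14.5% and 24.5% of all genes. Cflar, an inhibitor of caspase-8, had -0.16, -0.57 and -0.67 in heated cells, against 0.43, 0.29 and 0.46 in controls, and fell by 0.86 ± 0.10 (adjusted p = 8.5e-07). Mcl1, a short-lived survival protein of the BCL2 family, fell by 0.46, with -0.43 on its other probe. Bak1 (0.31), a death effector, was among those that rose.

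In lists of basic cell machinery rises outnumbered falls, and all were small. Of 57 cytosolic ribosomal proteins 18 rose and 0 fell, with a median of 0.14, and Rpsa (0.31), Rpl36 (0.31) and Rps6 (0.30) at the top. The 34 proteasome subunits had 12 higher and 0 lower (median 0.11), with Psmb9 (0.32), an immunoproteasome subunit, highest. The 38 genes of oxidative phosphorylation had 13 higher and 1 lower (median 0.12), and the 28 genes of DNA replication 13 higher and 3 lower (median 0.13), with Mcm7 (0.33), a helicase subunit, and Rfc3 (0.33), a clamp loader subunit, beside Tyms. The share of rises in all genes was 24.5%, and that of the ribosomal list was not far from it. Relative to the median of all genes, these lists stood at 0.07, 0.04, 0.05 and 0.06 in the order given, and with median centring at 0.20, 0.02, 0.09 and 0.00, where the medians of all but the ribosomal list were below 0.

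**Figure D3:**
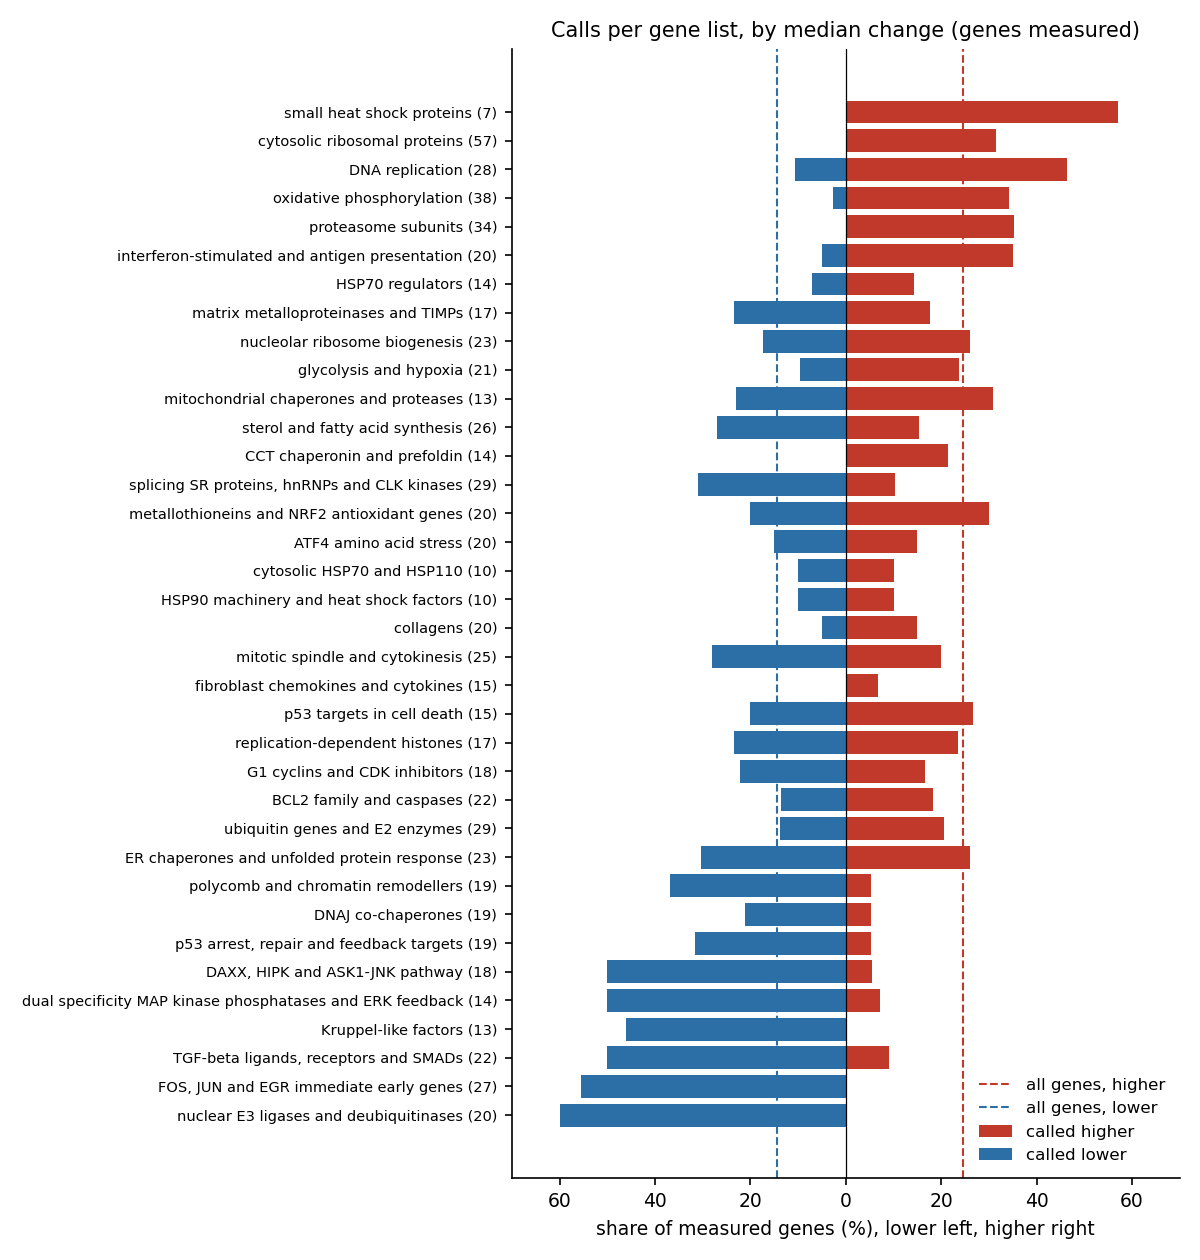
Share of the measured genes of each list (x axis, %) called higher, to the right, or lower, to the left, in heated CHIP null cells with the label 240 min, with lists sorted by median change and the number of genes measured in brackets. Dashed lines give the shares of all genes, 24.5% higher and 14.5% lower. Of the ubiquitin ligases and deubiquitinases, labelled nuclear although not all of them are, 12 of 20 were lower. Of the immediate early genes 15 of 27 were lower, and of the small heat shock proteins 4 of 7 were higher.

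Whether a gene was called higher moved with how low its ratio was in controls. Of 684 genes with a mean control log2 ratio under -2, 52.3% were called higher and 1.46% lower. Of 6124 genes with a control ratio from 0 to 1, 17.7% were called higher and 17% lower. The control values that set this ratio are also subtracted to give the change, so the ratio and the call are not independent. With the ratio of the scanner software the shares under -2 were 7.02% higher and 2.49% lower, and from 0 to 1 they were 8.92% and 11.8%. Most lists of markers of other cell types had control ratios below those of the fibroblast markers (median -0.74), among them macrophage (-1.79), epithelial (-2.45) and endothelial (-2.12) markers, while smooth muscle markers stood at 0.13. Of 11 macrophage markers 8 rose and 0 fell, among them Marco (0.37), a scavenger receptor. Of all genes with a control ratio from -2 to -1, 45% were called higher and 8.33% lower. The mean log2 ratio of the macrophage markers was -1.77 to -1.64 on heated arrays, against -1.96 to -1.90 on control arrays. Of the 11, 7 were well above background on all 3 heated arrays and 9 on all 3 control arrays. In either group 1 of the 11 was well above background on 0 arrays. Of 10 epithelial markers 7 rose (Epcam at 0.32), and of 6 endothelial markers 5 rose (Cldn5 at 0.48), with mean ratios of -2.13 to -1.95 and -1.95 to -1.81 on heated arrays, against -2.37 to -2.21 and -2.18 to -2.13 on control arrays. Of 10 neural markers 3 rose, of 13 skeletal and cardiac muscle markers 1, and of 10 smooth muscle markers 1 rose and 1 fell. Fibroblast markers had 2 that rose, Fn1 (0.27) and Vim (0.22), and 2 that fell, Pdgfra (-0.21) and Col1a2 (-0.20, other probe 0.18). The part of dim signal in these rises was not tested, and in bulk RNA more cells of a type and more RNA per cell cannot be told apart.

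**Figure D4:**
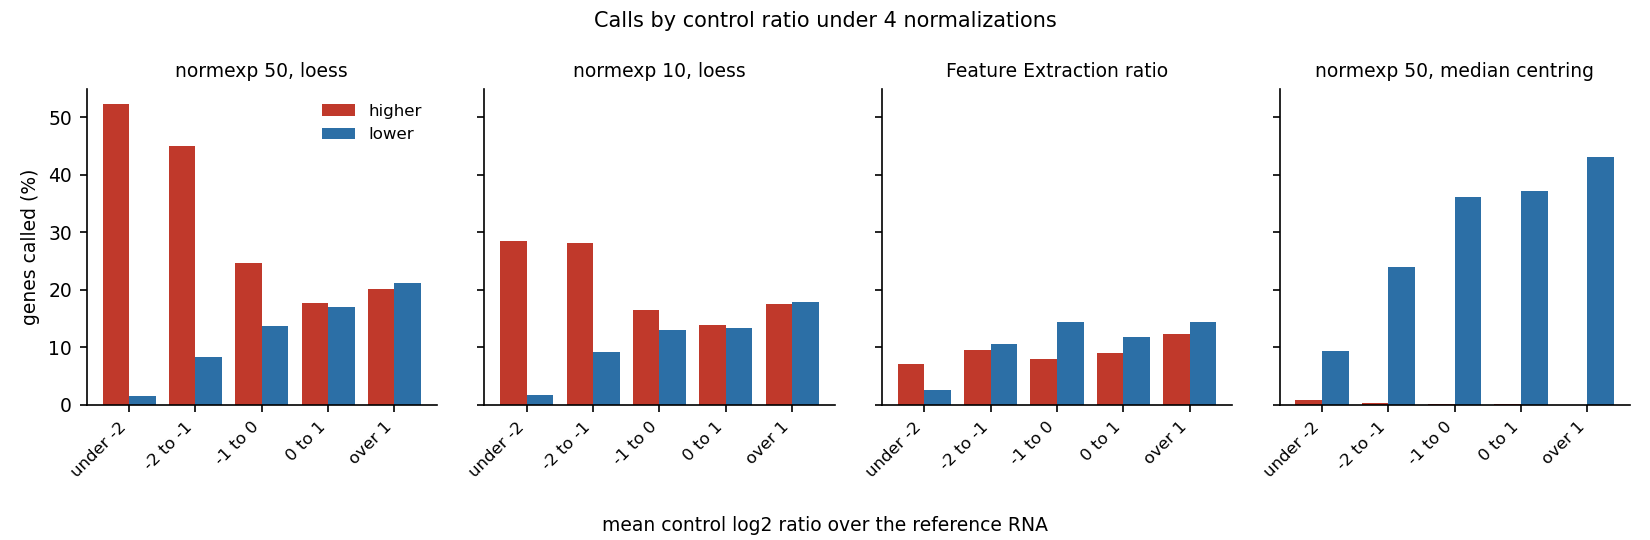
Share of genes called higher and lower (y axis, %) in heated CHIP null cells with the label 240 min, by the mean log2 ratio of the controls (x axis), under 4 ways of correcting and normalizing the arrays. Rises at ratios under -2 reach 52.3% with an offset of 50 and loess, 28.5% with an offset of 10 and 7.02% with the ratio of the scanner software, while with median centring nearly all calls are lower.

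The 3 heated arrays were not alike in the size of the response. Heated replicate 1 correlated with the 3 controls at 0.974 to 0.978 across genes, replicate 2 at 0.959 to 0.962 and replicate 3 at 0.950 to 0.955, while the controls correlated with each other at 0.983 to 0.987. For the 228 genes lower past 1.5-fold, the median difference from the control mean was -0.42, -0.79 and -0.87 on heated replicates 1, 2 and 3, and replicate 1 was nearest to the controls for 220 of them (96.5%). The median over the 3301 higher genes was 0.18, 0.25 and 0.29. Heated wildtype arrays, whose changes did not enter the choice of these genes, although they share the fit's estimate of the spread and the filter, gave -0.45, -0.66 and -0.73 for the same 228 genes, with replicate 1 nearest to the controls for 215 (94.3%). Hspa1a ran the other way in both genotypes, highest on replicate 1, with 4.04, 1.39 and 1.72 on its brightest probe in heated wildtype cells. The labels give no difference between the replicates, and the numbers do not name a shared litter or day. Heated wildtype replicate 1 lay on the slide of the wildtype controls, and heated wildtype replicates 2 and 3 lay on another. In wildtype cells the distance of replicate 1 from the controls thus cannot be told apart from slide. Without heated replicate 1 there were 427 genes lower past 1.5-fold and without heated replicate 3 there were 130.

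Wildtype cells with the same label were heated in the same way. No gene passed the test of the difference between the genotypes (limma, 0 of 13488, 0%), and 471 had an unadjusted p under 0.05, the lowest being 0.00015. The median 95% interval of that difference, before adjustment over genes, reached 0.20 to either side on the log2 scale. A call needed an adjusted p under 0.05, so for a typical gene differences above that size could also go without a call. All 228 genes lower past 1.5-fold in CHIP null cells were called lower in wildtype cells, where 12.7% of all genes were, with a median of -0.69 in CHIP null cells and -0.63 in wildtype cells. The CHIP null change had chosen these genes, so the medians are not compared on equal terms. Of the 10 genes higher past 1.5-fold 7 were called higher in wildtype cells, where 18.8% of all genes were. The genotypes share no control array, but they share the reference RNA and the scan set. They also share a slide, which held heated wildtype replicates 2 and 3 and CHIP null control replicates 1 and 2. A difference between slides would thus enter the 2 heat effects with opposite signs. With slide as a block 1 gene passed the test of the difference between the genotypes. Hspa1a changed by 2.24 ± 0.42 in CHIP null cells and 3.27 in wildtype cells on its brightest probe, a difference of -1.03 ± 0.55 on the fit over probes, and on the 3 other probes the difference was -0.11, 0.23 and 0.07. The brightest probe lacks heated replicate 1 in CHIP null cells, while wildtype cells keep theirs, and with the outlier spot kept the CHIP null change was 3.17. Vgll3 changed by -0.66 and -0.38, Rbfox3 by 0.72 and 0.22, and Hspd1 by -0.83 and -0.81, in CHIP null and wildtype cells.

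**Figure D5:**
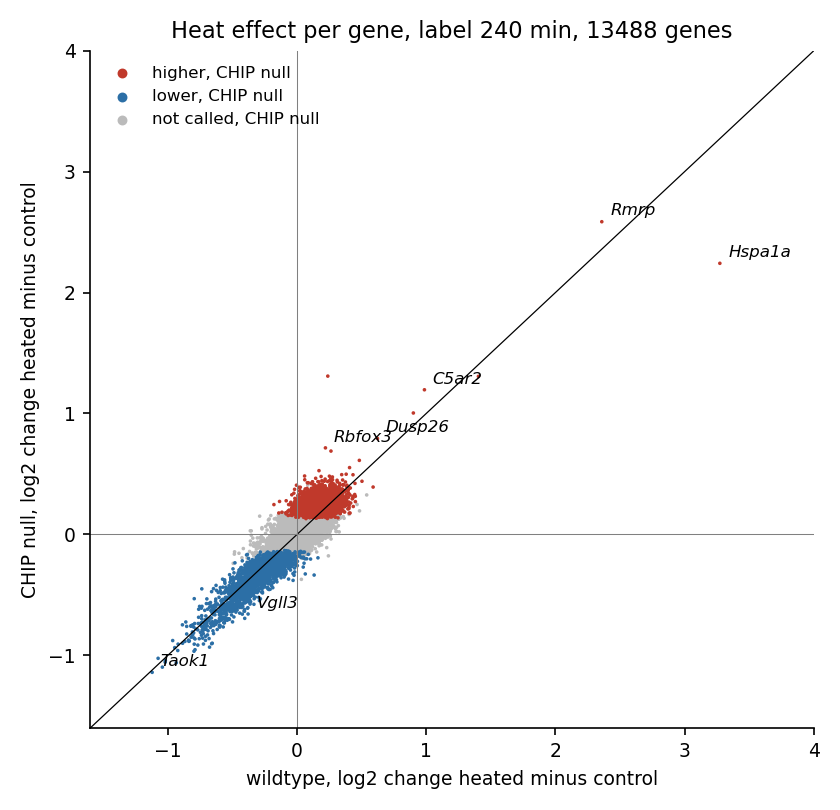
Log2 change of heated minus control cells with the label 240 min for each of 13488 genes, CHIP null on the y axis and wildtype on the x axis, coloured by the call in CHIP null. Points lie along the line of equal change; Hspa1a is drawn at 2.24 in CHIP null, without the outlier spot of heated replicate 1 (3.17 with it), and 3.27 in wildtype, and no gene passed the test of the difference.

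In CHIP null cells the response differed between the time labels at 320 genes (2.37%), 146 higher (1.08%) and 174 lower (1.29%) with the label 240 min than with 30 min. The count was 8 with median centring, 25 with slide as a block, 65 with only the arrays of the comparison and 76 to 837 with 1 array left out, without heated replicate 2 and without heated replicate 1 of 240 min. Controls of each label were scanned in a set of their own, and each effect was taken within its own set. The median net Cy5 signal of heated CHIP null arrays was 4.89 to 5.46 with 30 min and 7.63 to 8.16 with 240 min. With 30 min, heated replicate 1 shared a slide with the CHIP null controls, and heated replicates 2 and 3 lay on another. The part of dimmer signal in the differences between the time labels was not tested. Of the genes lower past 1.5-fold with the label 240 min, 208 of 228 (91.2%) were also called lower with the label 30 min, where 12.6% of all genes were, with a median of -0.69 with 240 min and -0.45 with 30 min. These genes were chosen by their change with 240 min, so the medians are not compared on equal terms. Hspa1a changed by 2.24 with 240 min and 0.46 with 30 min, a difference of 1.78 ± 0.57 with an adjusted p of 0.088. This difference passed the test with the outlier spots kept (2.71, adjusted p = 0.045), with the mean over probes (1.99, adjusted p = 0.039), with slide as a block (2.21, adjusted p = 0.018), with only the arrays of the comparison (adjusted p = 0.039) and without heated replicate 3 of 240 min (2.49, adjusted p = 0.034), and had adjusted p = 0.43 without heated replicate 2. Wwtr1, the YAP partner TAZ, fell by 0.90 with 240 min and changed by -0.24 with 30 min, a difference of -0.66 ± 0.12 (adjusted p = 0.0061). Ccn1, a target of YAP and TAZ, changed by -0.60 with 240 min and -0.03 with 30 min, and Klf4 by -0.68 and -0.14. H1f5, a linker histone, changed by -0.48 with 240 min and 0.30 with 30 min, and Plpp3, a lipid phosphatase, by -0.42 and 0.35. Rsrp1, a protein rich in arginine and serine, changed by 0.39 with 240 min (2 heated arrays, since the spot of replicate 1 was left out as an outlier) and -0.78 with 30 min.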

How the data were processed

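The 24 arrays were 2-colour Agilent oligonucleotide arrays, each with sample RNA in Cy5 and the common reference in Cy3, with no dye swaps per the labels. The deposited scanner files hold mean spot intensity values and median local background intensities on a linear scale, made with Feature Extraction 9.1.3.1 per the file headers. They also hold the software's log10 ratio of Cy5 over Cy3, background-subtracted and dye-normalized per the file headers, and flags for background and outlier spots. The authors' deposited value table holds 28139 probes of score values with no stated scale. Each column correlated best, at 0.9975 or more, with the log ratio of the scanner file of the other time label (heated columns after subtracting the control mean), so its direction is Cy5 over Cy3 and heated columns are centred on controls, while its scale is unstated. Its column medians lay between -0.05 and 0.02.

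Intensities were corrected with normexp (offset 50) and normalized within arrays by loess. An offset of 50 draws the ratios of dim probes towards 0, since the median net Cy5 signal was 7.63 to 10.2 on the 6 arrays. Control spots and outlier spots (333 over all arrays) were left out, and spots of a probe were averaged. Names were updated through RefSeq genes of GRCm38.p6 (22951 probes by accession, 6659 by symbol, 3109 by synonym, 8455 kept). Each gene was represented by its brightest probe, and 13488 genes well above background on all 3 arrays of at least 1 of the 8 groups were tested. limma 3.58.1 in R 4.3.3 fitted 8 group means to all 24 arrays, with 16 degrees of freedom for the residuals and 11.7 from the prior. Two-sided p-values were adjusted by Benjamini-Hochberg over all genes at 0.05. The number of arrays limits the precision. On simulated arrays of 13488 genes with 200 changed, this comparison recovered 36% of 1.2-fold, 98% of 1.5-fold and 100% of 2-fold changes. It gave 7 false calls, and there were 20 where responses to heat were compared. Recovery and false calls with 39% of genes called, as on these arrays, were not tested. The part of slide and of unlike replicates in these values was not tested either.

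Named genes were the 15 highest and 15 lowest called, named and non-overlapping ones, the 10 highest and 10 lowest called on all of 2 or more probes, up to 4 called members of each list with fixed anchor genes, and the 5 highest and lowest differences between time labels. The 5 unnamed features and other list members were added after their values were seen. Members and lists were chosen with earlier results of these data known. Same-numbered heated and control arrays had deviations that correlated at 0.132, 0.171 and -0.23, so the numbers were not taken as pairs. Promoter windows were available for 71.5% of genes tested, under 80%, so no check of heat shock elements over gene sets was made. Alternatives covered the offset, normalization, filter, probe rule, outlier spots, slide, replicate block and arrays left out. Drawing used matplotlib. Some results are not reported here.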

Additional observations from a re-analysis of the deposited data

Results flagged for a closer look

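The response to heat in CHIP null cells differed between the time labels, by a test of the difference itself (limma, with the spread taken over all 24 arrays), in the following named genes, each given as the log2 change with the label 240 min minus that with 30 min. The lowest were Grn at -0.91 ± 0.22 (adjusted p = 0.029), the precursor of granulins, H1f5 at -0.78 ± 0.17 (adjusted p = 0.015), Plpp3 at -0.77 ± 0.15 (adjusted p = 0.011), Zfp36l1 at -0.69 ± 0.18 (adjusted p = 0.04), which promotes decay of AU-rich mRNAs, and Wwtr1 at -0.66 ± 0.12 (adjusted p = 0.0061). Of these, Grn had changed by -0.12 with 240 min and 0.79 with 30 min, and its control replicate 2 with 240 min stood apart at -0.42, against -0.96 and -1.09 in the other controls.

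The highest were Rsrp1 at 1.17 ± 0.14 (adjusted p = 3e-05), Lyz2 at 1.16 ± 0.12 (adjusted p = 1.1e-06), a lysozyme of macrophages, Hnrnph2 at 0.65 ± 0.13 (adjusted p = 0.011), a splicing factor, and Cep55 at 0.59 ± 0.12 (adjusted p = 0.011), of cytokinesis. Lyz2 had changed by 0.26 with 240 min and -0.89 with 30 min, and its ratio was low on all 6 arrays with 240 min, -3.67 to -3.48 in heated cells against -3.87 to -3.77 in controls. Rab1a, a GTPase of secretion, had a difference of 0.65 that rests on 1 heated array with 240 min, since 2 spots were left out as outliers, so its p is no test over replicates of that group. With these spots kept the difference was 0.404 (adjusted p = 0.13), and with the mean over probes it was 0.0838. With the label 240 min Rab1a, Hnrnph2 and Cep55 had changed by 0.13, 0.16 and 0.06, and with 30 min by -0.53, -0.49 and -0.53. Of these 10 genes, 7 no longer passed with median centring (Rsrp1, Lyz2 and H1f5 did), and 5 no longer passed with each of the scanner software's ratio, an offset of 10, slide as a block and only the arrays of the comparison. Rsrp1 and Lyz2 passed in each of these. Which cause lies behind these differences was not tested.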

How the results depend on the processing

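The count of genes called higher or lower with heat moved most with normalization. With median centring 19 were higher, 4671 lower and 1361 lower past 1.5-fold, with 6 higher past 1.5-fold. With the scanner software's ratio 2830 were called and 1179 higher, with 691 lower and 47 higher past 1.5-fold, and with an offset of 10 these last were 420 and 44. The mean over all tested probes of a gene left 87 lower past 1.5-fold. With slide as a block, which rests on control replicate 3 alone, 2750 were called and 1318 higher. With the replicate block 5324 were called. Leaving out 1 array gave 3062 to 6152 called, 1685 to 3895 higher, 1377 to 2257 lower, 130 to 427 lower past 1.5-fold and 8 to 11 higher past it, the extremes of the first 4 coming without heated replicate 3 and without heated replicate 1. The genotype difference had 1 call with slide as a block, 0 with the replicate block and 0 to 3 with 1 array left out. The time difference had 320 calls, and 8 with median centring, 114 with the scanner software's ratio, 106 with an offset of 10, 25 with slide as a block, 65 with only the arrays of the comparison, 318 with the replicate block and 76 to 837 with 1 array left out (without heated replicate 2 and without heated replicate 1 of 240 min). Several small rises changed sign with median centring, to -0.00435 for Sat1, -0.0231 for Trdn, -0.111 for Cryab, -0.123 for Trp53, -0.12 for Cdkn1a, -0.147 for Hmox1 and -0.056 for Bax. Changes that had not passed became falls that passed by limma, -0.184 for Fos (adjusted p = 0.031) and -0.309 for Mt1 (adjusted p = 0.024). The median of all genes was -0.175 there. Fos was -0.533 by the scanner software's ratio (adjusted p = 0.0013). Hspa1a was 1.53 to 2.95 with 1 array left out and at most 3.17 otherwise. The causes were not tested. The value table was not used as an alternative, since its columns match the other time label. Signal over background limits the genes with low ratios.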

Other observations

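Genes of RNA splicing, of interferon and of prefoldin, not described above, showed the following values in heated CHIP null cells with the label 240 min. Of 29 SR proteins, hnRNPs and CLK kinases 9 fell and 3 rose, beside 14.5% and 24.5% of all genes. Hnrnpf (-0.47), Hnrnpr (-0.47) and Hnrnpa2b1 (-0.41), RNA-binding proteins of splicing, were the lowest, and Hnrnpl (0.36) the highest, and the other probe of Hnrnpa2b1 changed by -0.01. Of 20 interferon-stimulated and antigen presentation genes 7 rose, led by Bst2 (0.35), which tethers viruses, and 1 fell, Ifit2 (-0.19). Of 14 genes of the CCT chaperonin and prefoldin, which fold actin and tubulin, 3 rose, Pfdn1 (0.38), Pfdn5 (0.19) and Pfdn6 (0.16), all of prefoldin, and 0 fell. With median centring the medians of the interferon and chaperonin lists were -0.09 and -0.20, against -0.18 for all genes.

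Collagens (3 rose and 1 fell of 20) and genes of glycolysis and hypoxia (5 rose and 2 fell of 21) had median changes of 0.04 and 0.06, near the 0.07 of all genes. Replication-dependent histones had 4 higher and 4 lower of 17 measured. The shares of all genes were 24.5% higher and 14.5% lower. Mt1, a metallothionein that binds heavy metals, changed by 0.01 ± 0.06 (adjusted p = 0.89), and Hmox1, heme oxygenase, by 0.17 ± 0.07 (adjusted p = 0.046).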
